A study of Mus musculus with 6 samples.

Results

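The prostaglandin E2 (PGE2) arm described here comprises 10 genes: the cyclooxygenases Ptgs1 and Ptgs2, the terminal PGE synthases Ptges, Ptges2 and Ptges3, the PGE2 receptors Ptger1 to Ptger4, and Hpgd, the enzyme that starts PGE2 breakdown. They were chosen by gene symbol from the 34714 rows of a table of RNA-sequencing counts from mouse kidney, and all 10 were among the 18927 genes with enough counts to be tested. Of the 6 libraries, 3 came from wild-type C57BL/6J mice and 3 from miR-92b-/- mice (strain C57BL/6JGpt-Mir-92bem22Cd549/Gpt), which lack the microRNA gene Mir92b in every cell. All mice were 8-week-old males with the left ureter tied off (unilateral ureteral obstruction, UUO), and kidneys were taken 10 days later. The treatment text calls ligated kidneys nonfibrotic controls, but the count column names and the sample treatment entries both give UUO for all 6. No unobstructed kidney was analysed here. The deletion is global, so it is not limited to the kidney, and it was not checked here because the count table used has no microRNA rows. The labels do not state whether the wild types were littermates or whether each library is a separate animal. If the libraries are not separate animals, the p-values measure only the spread between these samples.

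Cyclooxygenases turn arachidonic acid, released from membranes by phospholipases, into an unstable intermediate that terminal synthases convert into PGE2 or other prostanoids. In the kidney PGE2 acts on 4 receptors, called EP1 to EP4, that adjust blood flow, renin release and the handling of salt and water by the thick ascending limb and collecting duct. Ptgs1 is usually made constitutively, whereas Ptgs2 is the inducible enzyme, known in the kidney from the macula densa and from interstitial cells of the medulla.

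Because the mice differ in a microRNA, the sequence to look for in these genes is its seed, bases 2 to 8 of the mature strand. The mature miR-92b-3p (RefSeq, GRCm38.p6, chr3:89227126-89227147, minus strand) is shown with the seed in capitals.

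miR-92b-3p: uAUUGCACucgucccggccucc

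The letters that pair with it in a target are GTGCAATA (8mer), GTGCAAT (7mer-m8), TGCAATA (7mer-A1) and TGCAAT (6mer), searched on the transcript strand in the annotated 3' UTR of the longest coding transcript of each gene. Of the 10 genes, 3 held an 8mer or 7mer, 2 held only a 6mer and 5 held none. Among the 15332 tested genes with such a UTR, 13.2% held an 8mer or 7mer. That share was not matched for UTR length. The median UTR of the tested genes was 1087 bases. All members except Hpgd (838 bases) and Ptgs1 (921 bases) had a longer one, up to 3444 bases in Ptges2, and a longer UTR leaves more room for a match. The sites are shown with the matching bases in capitals, since they mark which members could pair with the deleted microRNA by sequence.

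Ptger4, 8mer, chr15:5234590-5234613, minus strand: tataaaatcctGTGCAATAgacat

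Ptger1, 7mer-m8, chr8:83672413-83672436, plus strand: gttgcaccgctGTGCAATtttgag

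Ptgs2, 7mer-A1, chr1:150106837-150106860, plus strand: tccatctctcaaTGCAATAggtat

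In Ptger4 the 8mer starts 30 bases after the stop codon and lies in the last exon, in Ptgs2 the match starts at UTR base 1067, and in Ptger1 at base 2891. A match is a run of letters in a reference transcript and does not show pairing in these kidneys, and the related miR-92a carries the same seed. The levels of these 3 genes in the knockout are given below, each with its receptor or enzyme group: none of them passed the test, and their log2 fold changes (knockout over wild type) were 0.07 for Ptger4, -0.56 for Ptger1 and -0.48 for Ptgs2.

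Library totals ran from 38738204 to 51932509 counts. Marker lists for proximal tubule, thick ascending limb, collecting duct and podocytes were detected in every library, with summed levels of 645 to 2336, 824 to 4687, 195 to 484 and 285 to 361 CPM. CPM is counts scaled to library size after adjusting the libraries to one another with the TMM factors of edgeR. Libraries within a group differed widely in these lists, and knockout replicate 3 had the lowest proximal tubule, thick ascending limb and collecting duct sums and the highest fibroblast sum (4884 CPM, against 1225 to 3332 CPM in the other 5). In bulk tissue, fewer cells of a type and less RNA per cell cannot be told apart.

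None of the 10 genes differed between knockout and wild type at an adjusted p under 0.05, and 0% of all 18927 tested genes did. The test was the edgeR quasi-likelihood F test, with Benjamini-Hochberg adjustment over all tested genes. At an unadjusted p under 0.05 there were again 0 of the 10, against 7.9% of all tested genes. With libraries left out, Ptger1 reached that unadjusted level without wild-type replicate 3, and both Ptger1 and Ptgs1 did once both replicates 3 were dropped. The DESeq2 Wald test called 0 of the 10 at an adjusted p under 0.05 and 0.328% of all genes. The fold change lay above 0 for 4 of the 10 and for 47.7% of all tested genes. The median log2 fold change was -0.11 for the 10 and -0.02 for all tested genes. Only Ptger2 had knockout libraries that all lay outside the wild-type range, 1 of 10 against 16.1% of all tested genes.

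**Figure D1:**
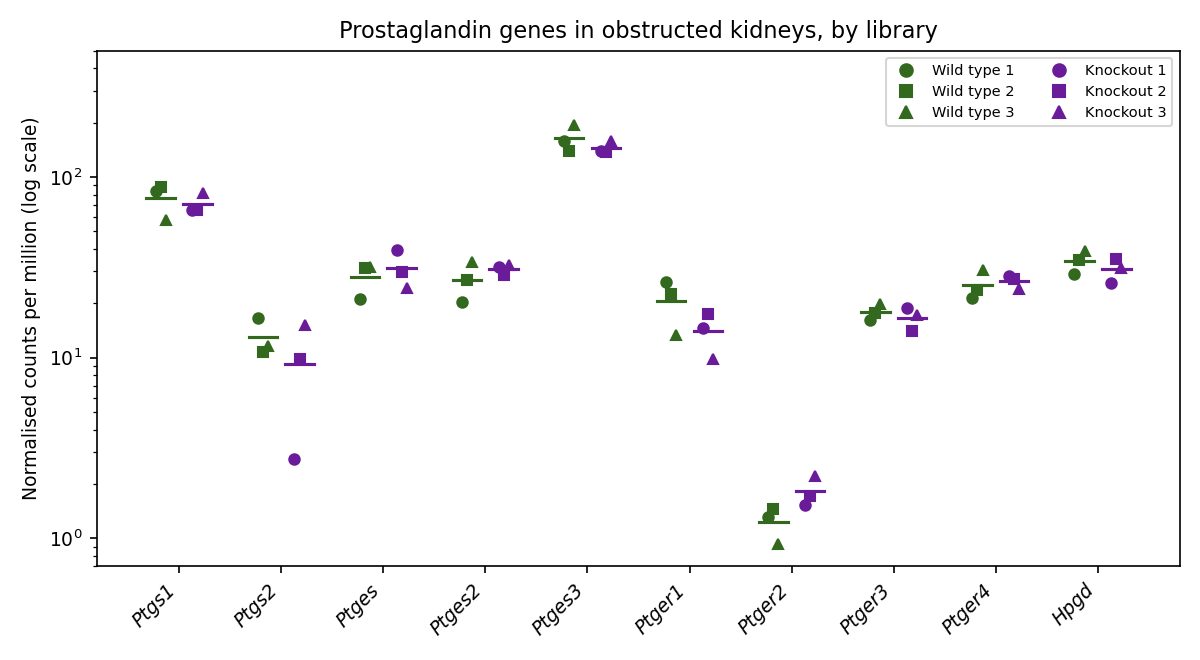
CPM on a log axis for the 10 genes, with each symbol a library (green, wild type; purple, knockout) and each bar a group mean of 3 libraries. Ptgs2 in knockout replicate 1, at 2.76 CPM, sits far below its other 5 values, and Ptger2 is the gene whose groups do not overlap.

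Levels of different genes were compared per kilobase of the longest coding transcript. Which transcript forms these kidneys used was not checked, so the order holds for these lengths only. On that scale Ptges3 stood first, at 81.9 ± 14.1 CPM per kb in the wild type (SD, n = 3), and its lowest library lay above the highest library of every other member. Ptgs1 followed at 26.7 ± 5.73 and Hpgd at 20.3 ± 2.93 CPM per kb, and the ranges of these neighbours over the 6 libraries overlapped. A gap separated Hpgd, at 15.4 or more in each library, from Ptges, at 10.8 or less. Ptges, Ptger4, Ptger3 and Ptges2 had wild-type means of 7.67, 7.62, 5.67 and 5.44 CPM per kb. Ptges and Ptges2 each overlapped with the other 3, whereas the lowest Ptger4 library (6.48) lay above the highest Ptger3 library (6.26). Ptger1 (mean 4.39) overlapped with Ptger3, Ptges2 and Ptgs2 (mean 2.90) but not with Ptges or Ptger4. Ptger2 was lowest at 0.336 ± 0.0732 CPM per kb in the wild type, and its highest library (0.604) lay just under the lowest Ptgs2 library (0.620).

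**Figure D2:**
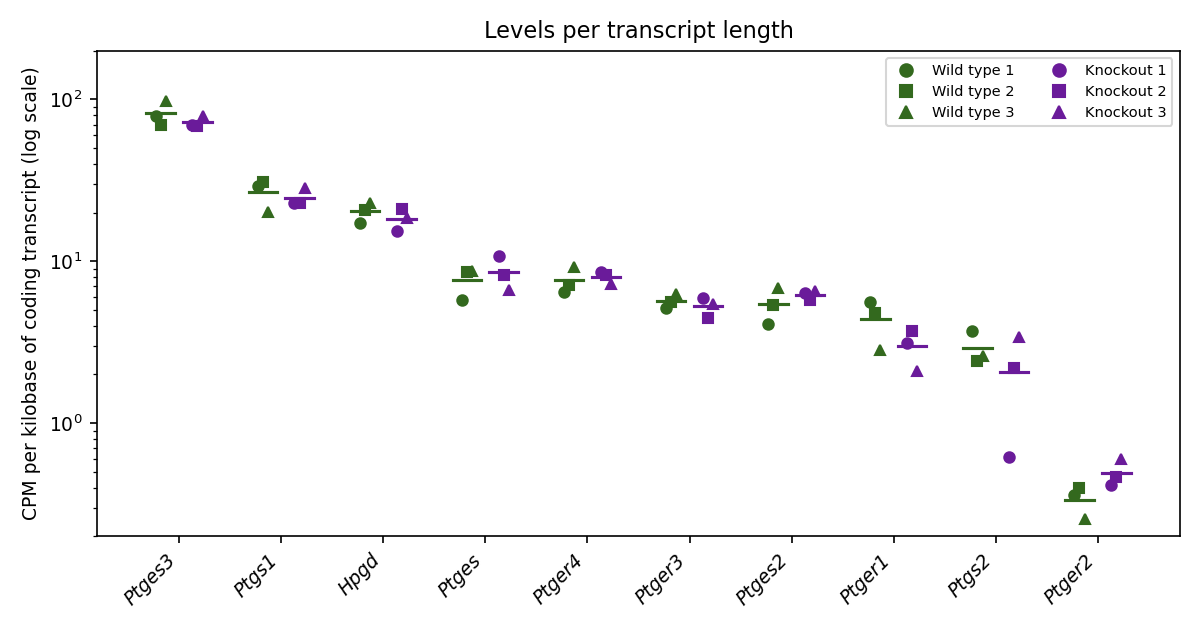
CPM per kilobase of the longest coding transcript on a log axis, ordered by the wild-type mean, with each symbol a library and each bar a group mean of 3 libraries. Ptges3, Ptgs1 and Hpgd form the upper end, and Ptger2 is at 0.604 or less in each of the 6 libraries.

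The cyclooxygenases lie on chromosomes 2 and 1 (Ptgs1, chr2:36230426-36252272; Ptgs2, chr1:150100031-150108227; GRCm38, both plus strand). Ptgs1 measured 83.6, 88.1 and 57.6 CPM in wild-type replicates 1 to 3 and 65.3, 65.6 and 81.2 CPM in the knockout. The groups overlapped, with wild-type replicate 3 the lowest library and wild-type replicate 2 the highest. The fold of knockout over wild type was 0.925, with a 95% interval from 0.684 to 1.25 (edgeR adjusted p = 0.848; intervals here are not adjusted for the number of genes). That interval is narrower than the interval of Ptgs2 on the log scale. Its log2 value of -0.11 turned to 0.0047 without wild-type replicate 2, and lay at -0.28 without wild-type replicate 3, at -0.23 without knockout replicate 3 and at -0.39 once both replicates 3 were dropped.

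Ptgs2 measured 16.5, 10.7 and 11.6 CPM in wild-type kidneys and 2.76, 9.79 and 15.3 CPM in knockout kidneys. Knockout replicate 1 rested on 121 counts, while the other 5 libraries had 456 to 768, and the remaining knockout libraries lay within or close to the wild-type range. The coefficient of variation was 67.6% among knockout and 24.0% among wild-type libraries, against medians of 14.2% and 20.3% over all tested genes. The log2 fold change was -0.48 ± 0.53 (SE, n = 3 per group; edgeR adjusted p = 0.775), and the exact two-sided permutation test of log2 CPM gave p = 0.4. Its 95% interval in fold, 0.307 to 1.68, was the widest of the 10 on the log scale. Single libraries set the size of the value: it was -0.04 without knockout replicate 1, -1.04 without knockout replicate 3, -0.27 without wild-type replicate 1 and -1.11 once both replicates 3 were dropped.

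Per kilobase, Ptgs1 exceeded Ptgs2 in all 6 libraries. The ratio was 7.88, 12.8 and 7.72 in wild-type replicates 1 to 3, and 36.7, 10.4 and 8.27 in the knockout. Apart from knockout replicate 1, the ratio in each knockout library lay inside the wild-type range.

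The libraries at the extremes of Ptgs2 were also at the extremes of a list of 4 smooth muscle and renin cell markers (Acta2, Myh11, Cnn1 and Ren1), all of which were detected in the 6 libraries. The list summed to 954, 281 and 157 CPM in wild-type kidneys and to 113, 393 and 1338 CPM in knockout kidneys, so that knockout replicate 1 was the lowest library and wild-type replicate 1 and knockout replicate 3 were the highest 2, as for Ptgs2. Of the 4 markers, 2 had a fold change above 0. Acta2 and Ren1 shared these extremes, but Myh11 and Cnn1 did so only in part. Both were higher in knockout replicate 2 (42.5 and 10.5 CPM) than in knockout replicate 3 (38.97 and 8.28 CPM). Myh11 was lowest in wild-type replicate 3. Ren1 is part of the sum and made up most of it in its highest 2 libraries, so a shared order is partly built in. Ren1, the gene of renin, whose release is under cyclooxygenase control in the kidney, kept the library order of that sum, at 558, 124 and 56.7 CPM in wild-type kidneys and 17.0, 142 and 934 CPM in knockout kidneys. Ren1 overlapped between the groups (log2 fold change 0.57 ± 1.30; edgeR adjusted p = 0.895; -1.63 without knockout replicate 3 and 2.01 without wild-type replicate 1). Knockout replicate 1 also had the highest sum of the adipocyte list, at 173 CPM against 42.9 to 135 CPM in the other libraries. Fabp4 made up nearly all of the sum in knockout replicate 3, at 133 CPM. Adipoq, Plin1 and Cidec were at 19.4, 8.37 and 20.9 CPM in knockout replicate 1. Their next highest library was wild-type replicate 2, at 4.59, 1.46 and 4.57 CPM. The extremes of Ptgs2 were not particular to the smooth muscle and renin cell list. The endothelial list shared them, at 348, 189 and 183 CPM in wild-type kidneys and 173, 286 and 534 CPM in knockout kidneys. The remaining marker lists did not share all of these extremes. The part of any of these cells in the Ptgs2 values was not tested.

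**Figure D3:**
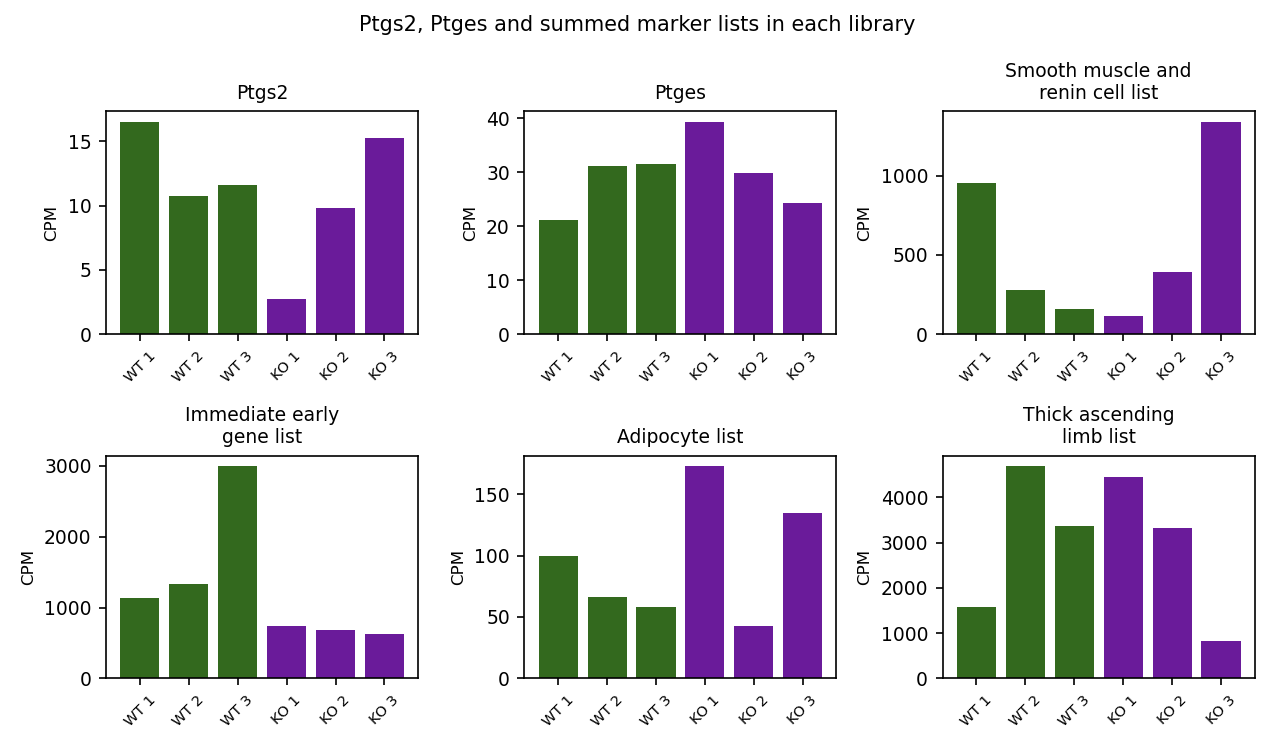
Bars give CPM in each library for Ptgs2, Ptges and 4 summed marker lists (green, wild type; purple, knockout; vertical axes start at 0 and differ between panels). Ptgs2 and the smooth muscle and renin cell list are both lowest in knockout replicate 1, while the immediate early gene list is lower in all 3 knockout libraries than in all 3 wild-type libraries.

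Ptgs2 is known as an immediate early gene, induced rapidly through a cyclic AMP response element and other sites near its start. The RefSeq promoters of both cyclooxygenases, 250 bases before and 50 bases from the transcript start on, were searched on both strands for 4 motifs. TGACG is the core of the cyclic AMP response element and CACGTG is a common form of the E-box. The TATA box was searched as TATAAA, and the site that AP-1 factors bind was searched as TGACTCA. Both windows are printed with matches in capitals.

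Ptgs2, chr1:150099781-150100080, plus strand: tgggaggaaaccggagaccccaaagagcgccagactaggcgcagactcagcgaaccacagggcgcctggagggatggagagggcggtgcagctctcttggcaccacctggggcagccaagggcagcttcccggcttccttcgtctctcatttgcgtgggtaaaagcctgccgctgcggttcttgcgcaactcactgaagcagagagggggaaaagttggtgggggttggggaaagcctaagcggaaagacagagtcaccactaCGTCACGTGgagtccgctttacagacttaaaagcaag

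Ptgs1, chr2:36230176-36230475, plus strand: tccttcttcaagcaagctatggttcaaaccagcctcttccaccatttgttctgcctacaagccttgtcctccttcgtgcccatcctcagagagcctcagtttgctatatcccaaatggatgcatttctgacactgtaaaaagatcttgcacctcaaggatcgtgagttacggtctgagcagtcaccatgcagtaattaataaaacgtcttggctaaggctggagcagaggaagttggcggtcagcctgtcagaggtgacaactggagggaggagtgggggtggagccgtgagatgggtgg

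In Ptgs2 the response element core (bases 14 to 18, minus strand) and the E-box (bases 17 to 22) overlapped just after the annotated start. Positions are counted from that annotated start, and the start used in these kidneys was not checked. The Ptgs1 window held none of the 4 motifs. These motifs did not separate inducible from other members. The Ptges3 window also held TGACG (bases 12 to 16, minus strand) and the Ptges2 window CACGTG (bases -77 to -72). The window of the inducible Ptges held none. Of 32851 promoters of this length, 20.8% held TGACG, 7.15% CACGTG, 13.6% TATAAA and 5.2% TGACTCA. The list of 10 immediate early genes summed to 1141, 1337 and 2995 CPM in wild-type kidneys and to 738, 681 and 633 CPM in knockout kidneys. All 10 had a fold change below 0, and for 8 of them the groups did not overlap on the lower side, against 7.2% of all tested genes. An unadjusted p under 0.05 was reached by 9 of the 10 on the lower side, against 3.52%. None passed the adjusted threshold with edgeR. Fos was at 63.5, 84.4 and 377 CPM in wild-type kidneys and 17.9, 16.1 and 13.3 CPM in knockout kidneys (log2 fold change -3.47 ± 0.69; edgeR adjusted p = 0.627; DESeq2 adjusted p = 0.0119, the lowest over the alternatives, which ran up to 0.971). Ptgs2 did not share this pattern by library: it was not highest in wild-type replicate 3, and knockout replicate 3 was its second highest library.

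The 3 PGE synthases are unrelated in sequence family. Ptges, the inducible microsomal synthase that usually works with Ptgs2 (chr2:30889471-30929863, minus strand), measured 21.1, 31.2 and 31.6 CPM in wild-type kidneys and 39.3, 29.9 and 24.3 CPM in knockout kidneys. The groups overlapped, and a knockout library was the highest while a wild-type library was the lowest. The fold was 1.11 (95% interval 0.775 to 1.60; edgeR adjusted p = 0.825), and its log2 value of 0.16 was -0.01 without wild-type replicate 1, -0.04 without knockout replicate 1 and 0.31 without knockout replicate 3. Ptges and Ptgs2 ran opposite to each other over the libraries: knockout replicate 1 was the highest for Ptges and the lowest for Ptgs2, and wild-type replicate 1 was the lowest for Ptges and the highest for Ptgs2 (Pearson r of log2 CPM = -0.86 over 6 libraries that share the same scaling, a description only). The thick ascending limb list, which includes Ptger3, ran 1575, 4687 and 3372 CPM in wild-type kidneys and 4461, 3313 and 824 CPM in knockout kidneys. Its lowest 2 libraries were those of Ptges, but its highest was wild-type replicate 2. The proximal tubule list also had these lowest 2, at 645 CPM in knockout replicate 3 and 1148 CPM in wild-type replicate 1. The part of tubule content in the Ptges values was not tested.

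Ptges2, a membrane-associated synthase (chr2:32395896-32405772, plus strand), measured 20.4, 26.8 and 34.0 CPM in wild-type kidneys and 31.9, 28.8 and 32.5 CPM in knockout kidneys. Each knockout value lay inside the wild-type range. The fold was 1.15 (95% interval 0.840 to 1.57; edgeR adjusted p = 0.751), and the log2 value of 0.20 lay at 0.03 without wild-type replicate 1 and at 0.40 without wild-type replicate 3. Ptges3, also known as the p23 cochaperone of Hsp90 (chr10:128058954-128077272, plus strand), measured 159, 139 and 194 CPM in wild-type kidneys and 140.1, 138 and 158 CPM in knockout kidneys. Its wild-type replicate 3 stood above the rest, and the fold was 0.887 (95% interval 0.682 to 1.15; edgeR adjusted p = 0.744), at -0.17 on the log2 scale and -0.03 without wild-type replicate 3. A processed pseudogene of Ptges3 exists, and reads could be split between the copies.

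The receptors differ in the G proteins they use. Ptger1 (EP1, coupled to calcium signalling and known in the collecting duct) lies at chr8:83666678-83672753, plus strand. It measured 26.2, 22.4 and 13.3 CPM in wild-type kidneys and 14.7, 17.5 and 9.83 CPM in knockout kidneys. Knockout replicate 3 was the lowest library and wild-type replicates 1 and 2 the highest, but wild-type replicate 3 lay inside the knockout range. The log2 fold change was -0.56 ± 0.30 (fold 0.678, 95% interval 0.419 to 1.10; edgeR p = 0.0995, adjusted p = 0.638), and the exact two-sided permutation test of log2 CPM gave p = 0.3. It ranged from -0.35 without wild-type replicate 1 and -0.36 without knockout replicate 3 to -0.79 without wild-type replicate 3. Collecting duct markers summed to 350, 484 and 473 CPM in wild-type kidneys and 404, 336 and 195 CPM in knockout kidneys, with 0 of 8 above 0 in fold change. Knockout replicate 3 was the lowest library for both Ptger1 and this sum. Wild-type replicate 1, the highest for Ptger1, had the lowest sum of the wild-type libraries. The part of that cell type in the Ptger1 values was not tested. Whether counting used strand is not stated in the labels or the table, so reads from genes on opposite strands cannot be told apart where they overlap, for any member.

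Ptger2 (EP2, which raises cyclic AMP; chr14:44988195-45003820, plus strand) was the least abundant receptor, at 44 to 112 counts per library. It measured 1.32, 1.46 and 0.936 CPM in wild-type kidneys and 1.53, 1.72 and 2.22 CPM in knockout kidneys. Every knockout library lay above every wild-type library, and wild-type replicate 2 came close to knockout replicate 1. The log2 fold change was 0.56 ± 0.32 (fold 1.47, 95% interval 0.888 to 2.45; edgeR adjusted p = 0.641), and the exact two-sided permutation test of log2 CPM gave p = 0.1, which is the lowest value possible with 3 libraries per group. Once both replicates 3 were dropped its log2 value was 0.23. Antisense transcripts overlap 2.77% and 4.74% of its exonic bases.

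Ptger3 (EP3, which lowers cyclic AMP and is known from the thick ascending limb and collecting duct; chr3:157566892-157645888, plus strand) was the least variable member in the wild type, with a coefficient of variation of 9.91%. It measured 16.2, 17.6 and 19.7 CPM in wild-type kidneys and 18.7, 14.1 and 17.1 CPM in knockout kidneys, which overlapped (fold 0.933, 95% interval 0.709 to 1.23; edgeR adjusted p = 0.852). Its log2 value of -0.10 was 0.0047 without knockout replicate 2 and -0.02 without wild-type replicate 3.

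Ptger4 (EP4, which also raises cyclic AMP; chr15:5206661-5244187, minus strand) is the member with the 8mer match to miR-92b-3p printed above. It measured 21.5, 23.8 and 30.4 CPM in wild-type kidneys and 28.4, 27.2 and 23.9 CPM in knockout kidneys. Each knockout library lay inside the wild-type range. The fold was 1.05, with a 95% interval from 0.802 to 1.38 (edgeR adjusted p = 0.898), while its log2 value of 0.07 lay at -0.03 without wild-type replicate 1 and at 0.23 without wild-type replicate 3. Ttc33, on the opposite strand, shares 1.23% of the exonic bases of Ptger4, and a processed pseudogene on that strand, Gm15937, shares 15.3%. Ttc33 was at a log2 fold change of 0.32 ± 0.23 (edgeR adjusted p = 0.675).

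Hpgd, the 15-hydroxyprostaglandin dehydrogenase that inactivates PGE2 once it is taken up into cells (chr8:56294585-56321043, plus strand), measured 29.0, 34.9 and 38.7 CPM in wild-type kidneys and 26.0, 35.4 and 31.3 CPM in knockout kidneys. Replicate 1 was the lowest library of each group, and the groups overlapped. The fold was 0.903 (95% interval 0.688 to 1.18; edgeR adjusted p = 0.787), and its log2 value of -0.15 lay at -0.04 without knockout replicate 1 and at -0.26 without knockout replicate 2.

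**Figure D4:**
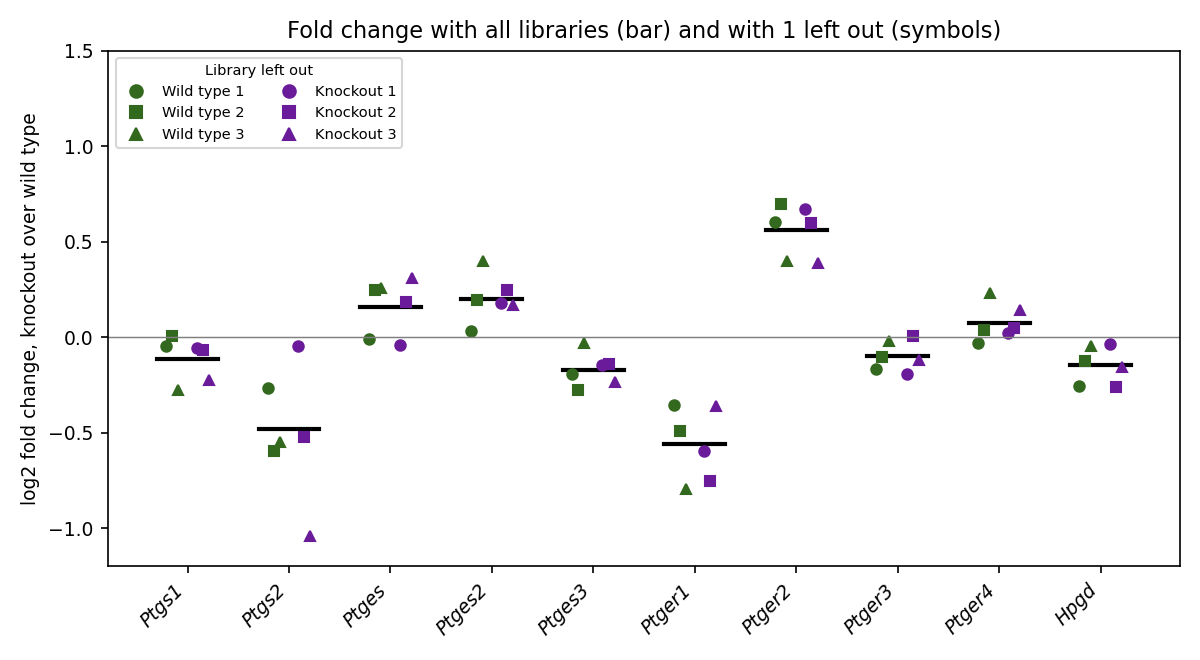
Black bars give the log2 fold change of knockout over wild type with all 6 libraries, and symbols give it with the library of that colour and shape left out. Ptgs2 has the widest span, from -1.04 to -0.04, and 6 of the 10 genes (Ptgs2, Ptges2, Ptges3, Ptger1, Ptger2 and Hpgd) keep their sign with each library left out.

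The genes whose log2 CPM followed a member most closely over the 6 libraries were taken from 12602 others with at least 5 CPM in a group. Nearest to Ptgs2 were Cldn7, Mybl1 and Dhps (Pearson r = 0.97, 0.96 and 0.95). Nearest to Ptges were Acsl1, Arhgap6 and Veph1 (r = 0.99 for each). Acsl1, an acyl-CoA synthetase that can activate arachidonic acid, measured 66.7, 99.9 and 101 CPM in wild-type kidneys and 137, 101 and 78.8 CPM in knockout kidneys, in nearly the library order of Ptges. Nearest to Hpgd were Phip, Gvin1 and Gem (r = 0.98, 0.95 and 0.93). With 6 points and this many candidates, these values of r are given as a description only.

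Around the PGE2 arm, 27 other prostanoid genes were listed, of which 24 were tested. None passed the adjusted threshold with edgeR or with DESeq2. At an unadjusted p under 0.05, 3 were higher (Pla2g4a, Ptgis and Slco2a1) and 3 lower (Pla2g4b, Pla2g2e and Cbr1), against 4.38% and 3.52% of all tested genes. The number of listed genes at that level, counted afresh in each fit, was 1 without knockout replicate 3 and 2 without wild-type replicate 3. It was 3 without wild-type replicate 1 or knockout replicate 2. The genes counted in these fits need not be among the 6 named. The median log2 fold change was 0.13, against -0.02 for all tested genes, with 15 of 24 above 0. Groups did not overlap for 3 genes on the higher side (Ptgis, Tbxas1 and Slco2a1) and 2 on the lower side (Cbr1 and Pla2g2e), against 8.95% and 7.2% of all tested genes.

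Upstream of the cyclooxygenases, Pla2g4a, the cytosolic phospholipase that releases arachidonic acid, measured 22.5, 28.9 and 21.5 CPM in wild-type kidneys and 28.8, 38.8 and 39.0 CPM in knockout kidneys. Wild-type replicate 2 and knockout replicate 1 met at nearly the same value, and the other libraries were separate. The log2 fold change was 0.55 ± 0.18 (edgeR adjusted p = 0.627), and it stayed between 0.40 and 0.69 over the alternatives. The secreted phospholipase Pla2g5 and the calcium-independent Pla2g6 were at 0.05 ± 0.33 and -0.16 ± 0.17. Pla2g7, which degrades platelet-activating factor, and the lysosomal Pla2g15 were at 0.19 ± 0.21 and 0.27 ± 0.18, and the low Pla2g2d at 0.78 ± 0.44. The remaining 2 genes of this group with an unadjusted p under 0.05, Pla2g4b (-2.40 ± 0.83) and Pla2g2e (-1.22 ± 0.44), lay below 1 CPM on average in both groups and were named after their values were seen. For Pla2g4b, wild-type replicate 1 alone was at 1.67 CPM and the other 5 libraries at 0.405 CPM or less, and its log2 value was -1.15 without that replicate.

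The synthases of the other prostanoids did not share a direction. Ptgis, which makes prostacyclin, had the smallest p of the 24: 11.2, 13.9 and 9.40 CPM in wild-type kidneys and 16.9, 20.01 and 21.6 CPM in knockout kidneys. Every knockout library lay above every wild-type library, and the log2 fold change was 0.76 ± 0.20 (fold 1.70, 95% interval 1.23 to 2.33; edgeR adjusted p = 0.627). It stayed between 0.56 and 0.93 over the alternatives, whose adjusted p ran from 0.134 to 0.971. The fibroblast list was above 0 for 6 of 6 markers, with sums of 2619, 1728 and 1225 CPM in wild-type kidneys and 1709, 3332 and 4884 CPM in knockout kidneys. The endothelial list was above 0 for 4 of 4, with sums of 348, 189 and 183 CPM and of 173, 286 and 534 CPM. Within the knockout both sums rose from replicate 1 to replicate 3, as Ptgis did. Knockout replicate 1 had the lowest endothelial sum and a fibroblast sum inside the wild-type range, while its Ptgis value lay above every wild-type library. No marker of either list was at 0, and the part of these cells in the Ptgis values was not tested.

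Tbxas1, the thromboxane synthase, was at 13.6 ± 2.04 CPM in wild-type kidneys and 16.9 ± 1.13 CPM in knockout kidneys (SD, n = 3; log2 fold change 0.31 ± 0.17, edgeR adjusted p = 0.641), and its log2 value lay at 0.19 without wild-type replicate 1. Tbxas1 is a gene of platelets and macrophages. The macrophage list was above 0 for 6 of 6 markers, at sums of 1055 to 1159 CPM in wild-type kidneys and 1331 to 1618 CPM in knockout kidneys. Its markers ranged in log2 fold change, with Cd68 at 0.03, C1qa at 0.12 and Lyz2 at 0.55. Knockout replicate 3 had the highest macrophage sum but the lowest Tbxas1 value of the knockout libraries, at 15.6 CPM. The part of macrophages in the Tbxas1 values was not tested. Hpgds and Ptgds, which make prostaglandin D2, were at -0.26 ± 0.19 and -0.11 ± 0.15. Of the enzymes that form or reduce other prostaglandins, Cbr1, a carbonyl reductase that acts on PGE2, measured 49.6, 41.7 and 47.6 CPM in wild-type kidneys and 40.1, 32.0 and 34.4 CPM in knockout kidneys. Each knockout library lay below each wild-type library (log2 fold change -0.38 ± 0.14; edgeR adjusted p = 0.627). The aldose reductase Akr1b3 was at -0.31 ± 0.20, Akr1b8 at -0.05 ± 0.21 and Prxl2b at 0.04 ± 0.22.

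Receptors for the other prostanoids overlapped between the groups. The prostacyclin receptor Ptgir measured 7.65, 7.30 and 8.23 CPM in wild-type kidneys and 7.05, 12.9 and 9.75 CPM in knockout kidneys. Its log2 fold change was 0.36 ± 0.25 (edgeR adjusted p = 0.673; 0.12 without knockout replicate 2). The prostaglandin F receptor Ptgfr and the thromboxane receptor Tbxa2r were at 0.22 ± 0.42 and -0.10 ± 0.36. The prostaglandin D2 receptors Ptgdr and Ptgdr2, and the phospholipase Pla2g10, had too few counts to be tested.

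Transport and further breakdown completed the list, with all 5 genes above 0 in fold change. Slco2a1, the transporter that carries prostaglandins into cells for breakdown by Hpgd, measured 91.4, 100.5 and 87.2 CPM in wild-type kidneys and 104, 119 and 143 CPM in knockout kidneys. The groups did not overlap, and the log2 fold change was 0.39 ± 0.15 (edgeR adjusted p = 0.627). It lay at 0.26 without knockout replicate 3, at 0.23 with the transcript length trend removed and at 0.22 once both replicates 3 were dropped. Abcc4, which exports prostaglandins, was at 80.0 ± 20.5 CPM in wild-type kidneys and 105 ± 6.13 CPM in knockout kidneys (log2 fold change 0.39 ± 0.19; edgeR adjusted p = 0.634), with overlapping groups, and lay at 0.21 without wild-type replicate 1. The reductases that act after Hpgd, Ptgr1, Ptgr2 and Zadh2, were at 0.11 ± 0.31, 0.15 ± 0.26 and 0.22 ± 0.12.

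**Figure D5:**
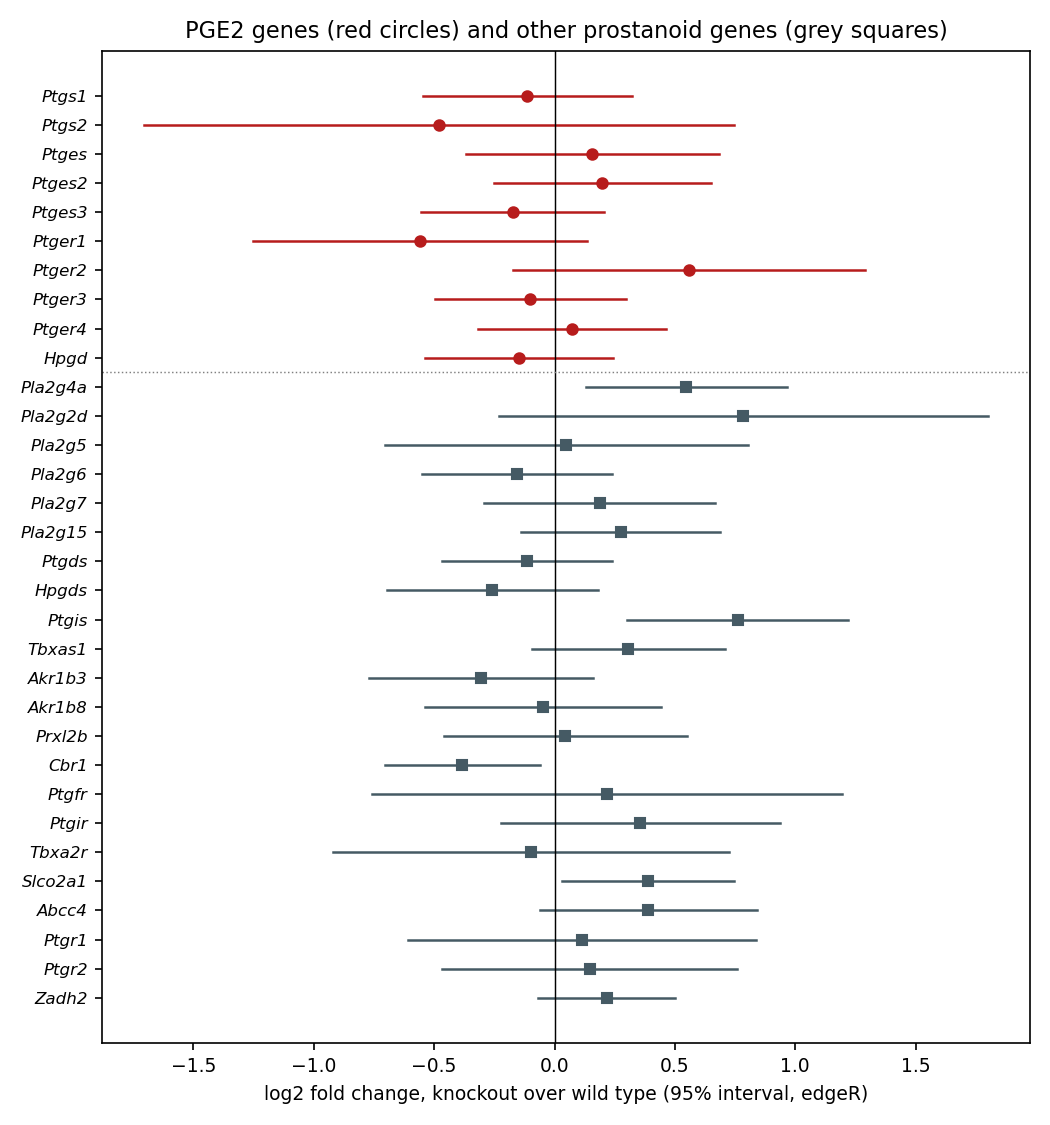
Points give the edgeR log2 fold change of knockout over wild type and lines its unadjusted 95% interval, for the 10 PGE2 genes (red circles) and the other prostanoid genes that averaged 1 CPM or more in either group (grey squares). Each red line crosses 0, and the grey lines that do not cross 0 belong to Pla2g4a, Ptgis, Cbr1 and Slco2a1, none of which passed after adjustment.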

How the data were processed

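The authors deposited raw, unnormalized read counts, with gene symbols as rows and libraries as columns (per the labels and the values). The submitters' processing notes list the builds GRCm38 and mm10. Aligner, counter and strand setting: not given in the sources used here. Knockout columns were matched to samples by the parts of the described name and its number. No other per-sample column was present.

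Counts were filtered with filterByExpr, scaled by TMM and compared with the edgeR 4.0.16 quasi-likelihood F test (robust fitting, group as the only term, R 4.3.3), with Benjamini-Hochberg adjustment over 18927 genes and a threshold of 0.05. A standard error is the log2 fold change over the root of F, and a prior count of 2 was added for log2 CPM. Gene models came from GENCODE M21, miRNA and promoter sequences from RefSeq. All 10 members were found in the RefSeq gene table and 9 had a promoter entry. The pipeline was tested on simulated counts. Alternatives were other scalings, filters and tests (DESeq2 1.42.0, limma-voom from limma 3.58.1), a replicate block, and each library left out. Removal of the length trend and leaving out replicate 3 of both groups were added after the data were seen.

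The members, lists and tests were chosen with earlier results of these data known. All members were named, as were listed prostanoid genes that averaged 1 CPM or more in either group. Ren1 and Fos were chosen after their values were seen, and Ttc33 because it overlaps a member. Likeness used the 3 highest correlations for Ptgs2, Ptges and Hpgd. A result on 1 other gene is not reported here.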

Additional observations from a re-analysis of the deposited data

How the results depend on the processing

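No member and no other prostanoid gene passed the adjusted threshold under any alternative run. Over all genes, where edgeR called 0 (1495 at an unadjusted p under 0.05), DESeq2 called 62, limma-voom 3, the unfiltered fit 2, the replicate block 1, the fit with replicate 3 of both groups left out 1, and fits with a library left out 0 to 1. The labels do not state that shared replicate numbers pair the libraries. The same-numbered correlations of deviations were -0.28, 0.18 and -0.29, and with 3 libraries a group these values cannot settle it. With the block Ptgs2 lay at -0.71 and Ptger1 had an unadjusted p under 0.05. Log2 fold changes that crossed 0 when a library was left out ran from -0.28 to 0.0047 for Ptgs1, -0.043 to 0.31 for Ptges, -0.19 to 0.0047 for Ptger3, -0.030 to 0.23 for Ptger4, -0.23 to 0.36 for Pla2g5, -0.30 to 0.12 for Akr1b8, -0.088 to 0.24 for Prxl2b, -0.13 to 0.74 for Ptgfr, -0.48 to 0.18 for Tbxa2r, -0.36 to 0.32 for Ptgr1, -0.10 to 0.39 for Ptgr2 and -1.63 to 2.01 for Ren1. Without a change of sign, leaving out a library gave 0.046 to 0.42 for Pla2g7, 0.090 to 0.38 for Pla2g15, -0.24 to -0.029 for Pla2g6, -0.40 to -0.11 for Hpgds, -0.42 to -0.13 for Akr1b3 and -0.23 to -0.013 for Ptgds. Other reversals were Ptgr1 (-0.080) and Ren1 (-0.34) with limma-voom; Ptgds (0.039) and Akr1b8 (0.11) with the length trend removed; and Pla2g7 (-0.081), Ptgds (0.020), Ptgr1 (-0.40) and Ren1 (-2.09) when replicate 3 was dropped from both groups. The causes were not tested. The number of libraries, 3 a group, limits the precision.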
